A study of Mus musculus with 44 samples.

Results

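The gene response that bone marrow-derived macrophages (BMDMs) made to KLA while the kinase TBK1 was inhibited was examined as the difference between the TBK1i_KLA and DMSO_Veh groups. These groups hold 4 of the 44 RNA-seq libraries of the series and were chosen by their labels, and all 12332 genes that passed a filter on low counts were tested. BMDMs are macrophages grown in culture from bone marrow, here from wild-type C57Bl6 mice that the methods describe as young adults. KLA (Kdo2 lipid A) is a pure agonist of TLR4, the receptor for bacterial lipopolysaccharide, and treatment with KLA or vehicle lasted 6 h. DMSO_Veh, the resting level in all that follows, received the solvent DMSO and no agonist, and DMSO_KLA received DMSO and KLA. TBK1i_KLA received KLA after the TBK1 inhibitor GSK8612. Per the methods, all cells were starved of serum before KLA or vehicle, and the inhibitor was given together with this starvation. Exposure to the inhibitor thus began before the 6 h of KLA, and the resting cells were serum-starved cells. The treatment field of the last group reads TBKi_KLA, and its labels do not say whether these cells also received DMSO, so the solvent may differ from that of DMSO_Veh. Each group had 2 libraries, and the names of all 6 libraries carry the same date stamp. No group received the inhibitor alone, so an effect of the inhibitor on resting cells and an effect on the KLA response cannot be told apart. The labels do not say whether the 2 libraries of a group came from separate mice or cultures, and p-values then measure only the spread between these libraries, which may be technical.

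TLR4 signals through 2 adaptor branches. The MyD88 branch at the plasma membrane activates NFκB and MAP kinases, and the TRIF branch, entered from endosomes, activates TBK1 and IKKε, which phosphorylate IRF3 so that the gene for interferon β is transcribed. Secreted interferon β then acts on the same cells through IFNAR1 and IFNAR2, JAK1, TYK2, STAT factors and IRF9, and this loop turns on the antiviral genes. NFκB induces its own inhibitors, among them IκBα (Nfkbia) and A20 (Tnfaip3), together with cytokines, chemokines and adhesion molecules.

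The promoters of some of these genes are shown first, because genes with the same element parted in the data. Promoters of 300 bases, from 250 before to 50 after a gene's start, were taken from RefSeq (GRCm38.p6, which is mm10) for the 9224 tested genes whose start there lay within 100 bases of the start in the count table. They were searched on both strands for an interferon element (GAAA, any 2 bases, then GAAA), an NFκB element (GGGA, any 2 bases, then TTCC), an AP-1 element (TGANTCA) and an antioxidant element (TGACNNNGC, which can overlap an AP-1 element). Windows of 100 bases are shown for genes that stood on either side of the resting level in TBK1i_KLA, each on the gene's own strand. Capitals mark the matches of the element for which a window is shown, and matches of the other elements are left in lower case, namely the AP-1 letters once in Rsad2, 2 times in Oas3 and once in Gbp2 and the antioxidant letters once in Nfkbia. The first pair belongs to Nfkbia (chr12:55492648-55492747) and the chemokine gene Cxcl2 (chr5:90903758-90903857), which held NFκB elements and were high in TBK1i_KLA. The match of Nfkbia began 29 bases before the start, and those of Cxcl2, which overlap on the 2 strands, began 97 and 96 bases before it.
Nfkbia: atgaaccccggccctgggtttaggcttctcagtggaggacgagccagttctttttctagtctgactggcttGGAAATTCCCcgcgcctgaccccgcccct
Cxcl2: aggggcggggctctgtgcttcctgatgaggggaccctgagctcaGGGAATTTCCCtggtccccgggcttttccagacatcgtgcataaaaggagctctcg
The next group held interferon elements and is shown because its members parted in TBK1i_KLA. Rsad2 (chr12:26456517-26456616, match 120 bases before the start) encodes viperin, and Oas3 (chr5:120777679-120777778, 75 bases) encodes an oligoadenylate synthetase. Both stood below the resting level. Cxcl10 (chr5:92349040-92349139, 213 bases) stood a little above that level, and Gbp2 (chr3:142620560-142620659, 59 bases), the gene of a guanylate-binding GTPase, stood far above it.
Rsad2: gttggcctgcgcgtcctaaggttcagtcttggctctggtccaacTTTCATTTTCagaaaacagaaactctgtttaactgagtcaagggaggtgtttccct
Oas3: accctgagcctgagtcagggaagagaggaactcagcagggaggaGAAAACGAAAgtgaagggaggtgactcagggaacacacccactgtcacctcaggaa
Cxcl10: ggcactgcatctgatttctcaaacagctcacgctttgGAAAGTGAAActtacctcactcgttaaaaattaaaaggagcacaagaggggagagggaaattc
Gbp2: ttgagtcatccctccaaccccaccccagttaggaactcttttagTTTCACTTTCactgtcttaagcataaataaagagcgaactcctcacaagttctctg
The last window, of the antioxidant gene Srxn1 (chr2:152105405-152105504), held AP-1 elements that began 102 and 45 bases before the start, and Srxn1 was higher in TBK1i_KLA than in either other group.
Srxn1: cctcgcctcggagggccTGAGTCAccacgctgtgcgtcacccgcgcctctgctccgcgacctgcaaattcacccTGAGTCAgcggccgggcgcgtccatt
Over all 9224 promoters, 3.36% held the interferon element, 1.51% the NFκB element, 4.73% the AP-1 element and 15.0% the antioxidant element. The interferon element was found in 20 of 35 promoters of antiviral genes (57.1%) and in 9 of 10 promoters of interferon-inducible GTPases. The NFκB element was found in 3 of 15 promoters of NFκB system genes and in 4 of 15 of chemokine genes, and the AP-1 element in 5 of 12 promoters of antioxidant genes. The antioxidant element was likewise found in 5 of these 12. The AP-1 element was also found in 10 of 35 antiviral, 4 of 15 NFκB system, 3 of 15 chemokine, 2 of 15 cytokine and 2 of 10 GTPase promoters. Among genes that IFNβ raised in other libraries, the interferon element stood in 22 of 139 promoters of genes higher than DMSO_Veh (15.8%) and in 26 of 134 of genes lower than DMSO_Veh (19.4%). A match is a description of these letters and was not tested for binding.

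**Figure D1:**
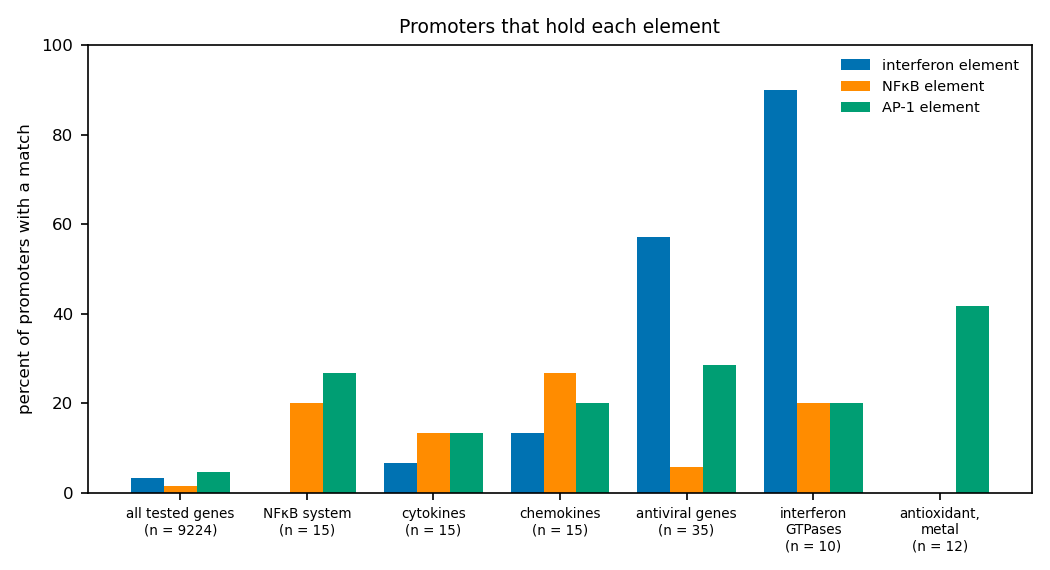
Share of promoters (y axis, percent, from 0) that held at least 1 match to the interferon, NFκB or AP-1 element on either strand, for all tested genes with a promoter and for 6 gene lists, with the number of promoters under each name. The interferon element reached 57.1% in the antiviral list and 90.0% in the GTPase list against 3.36% of all promoters, and the NFκB element reached 26.7% in the chemokine list against 1.51%.

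Between 8984445 and 12616572 reads were counted over genes in each of the 6 libraries, and the floor for a detectable level, 3 counts, corresponded to 0.184 CPM in DMSO_Veh and 0.320 CPM in TBK1i_KLA. CPM are counts scaled to library depth, here by TMM, which sets the bulk of genes level between libraries. All 10 macrophage markers were listed, with a summed level of 26583 to 26776 CPM in TBK1i_KLA, 19670 to 19894 CPM in DMSO_KLA and 16238 to 16278 CPM in DMSO_Veh. Of the 10, 4 were called higher than rest and 3, Cd68, Fcgr1 and Mertk, lower, and the higher sum lay mostly in Lyz2 (8289.9 and 8401 CPM at rest and 12858 and 12591 CPM in TBK1i_KLA) and Cd14. NK cell, erythroid and mast cell markers were at or near 0, with sums of at most 0.376 CPM in any library, and B cell markers summed to at most 3.21 CPM. T cell markers summed to at most 7.78 CPM, nearly all of it Cd247. Neutrophil precursor markers summed to at most 2.71 CPM in DMSO_Veh and to between 11.5 and 12.6 CPM in the KLA groups, and dendritic cell markers to at most 1.25 CPM in DMSO_Veh and to between 5.31 and 6.32 CPM in TBK1i_KLA. The dendritic sum in TBK1i_KLA lay mostly in Zbtb46 (mean 4.37 CPM, and 0.125 CPM at rest). Xcr1 was also called higher than rest, whereas Clec9a was called lower (mean 0.890 CPM at rest and 0.0564 CPM in TBK1i_KLA). Fibroblast markers summed to 50.8 to 52.2 CPM in DMSO_Veh and 28.5 to 31.3 CPM in TBK1i_KLA, and endothelial markers, nearly all of it Kdr, to at most 7.72 CPM in DMSO_Veh, 128 CPM in DMSO_KLA and 4.85 CPM in TBK1i_KLA. The part of other cells in any result was not tested, and in bulk RNA fewer cells of a type and less RNA per cell cannot be told apart.

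With KLA and the inhibitor together, NFκB system genes, cytokine genes and neutrophil chemokine genes stood high, whereas many antiviral genes stood near or below the level of unstimulated cells. Nfkbia, for example, was 40.3-fold and Tnf 274-fold above DMSO_Veh, while the interferon regulatory factor gene Irf7 was 5.59-fold and Oas3 8.35-fold below it. Of 12332 genes, 3299 (26.8%) were higher and 3767 (30.5%) lower in TBK1i_KLA than in DMSO_Veh in the quasi-likelihood fit of edgeR. A gene is said to be called where the change passed 1.5-fold and the Benjamini-Hochberg adjusted p was under 0.05. In DMSO_KLA against the same DMSO_Veh libraries, 3647 (29.6%) were higher and 3619 (29.3%) lower, and these comparisons share their control. In TBK1i_KLA against DMSO_KLA, 1852 (15.0%) were higher and 2260 (18.3%) lower. The split between higher and lower depends on the scaling. TMM factors were 1.32 in both DMSO_Veh libraries, 0.771 and 0.764 in DMSO_KLA and 0.991 and 0.987 in TBK1i_KLA. With library totals alone, the median of all genes in TBK1i_KLA against DMSO_Veh moved from -0.04 to -0.45 on the log2 scale, 1972 genes (16.0%) were higher and 5373 (43.6%) lower, and the share of higher genes among those called went from 46.7% to 26.8%. Changes below are therefore relative to the bulk of genes, and under library totals the log2 fold changes of TBK1i_KLA against DMSO_Veh shifted by a median of -0.41 (SD 0.02 over genes), with smaller shifts in genes at few or no counts. For DMSO_KLA against DMSO_Veh the shift was -0.78 with 1784 genes (14.5%) higher and 6795 (55.1%) lower (20.8% higher among those called against 50.2%), and for TBK1i_KLA against DMSO_KLA it was 0.37 with 3987 (32.3%) higher and 1429 (11.6%) lower (73.6% against 45.0%).

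Genes were then grouped by their response in libraries that played no part in these 6. KLA-induced genes were those called higher both in KLA against Veh of the table with the HDAC3 inhibitor RGFP966 (3399 genes, 27.9%) and in Pgc1b_flox_KLA against Pgc1b_flox_Veh, from mice with a floxed Pgc1b gene and no Cre (2787 genes, 22.8%). The same tables called 3924 (32.2%) and 3133 genes (25.7%) lower, and genes called lower in both are named KLA-reduced. IFNβ-induced genes were the 549 (4.09%) called higher in WT_IFNb against WT_Veh, in which 318 (2.37%) were called lower. The WT mice of that comparison had, per the methods, a floxed Ncor gene and no Cre. Of 2457 tested KLA-induced genes, 1624 (66.1%) were higher in TBK1i_KLA than in DMSO_Veh and 220 (8.95%) lower, with a median log2 fold change of 1.02 against -0.04 over all genes.

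The 2 kinds of KLA-induced gene differed in their counts. Of the 2064 that IFNβ did not induce, 1456 (70.5%) were higher than DMSO_Veh and 108 (5.23%) lower, and the median was 1.08, beside 1.59 in DMSO_KLA. Of the 393 that IFNβ also induced, 168 (42.7%) were higher and 112 (28.5%) lower, and the median was 0.31, beside 3.35 in DMSO_KLA. In the latter group 358 (91.1%) were lower in TBK1i_KLA than in DMSO_KLA and 5 higher, whereas in the former 849 (41.1%) were lower and 157 higher. Against a stricter standard of 4-fold induction in both other tables, 512 of 609 genes without IFNβ induction were higher than DMSO_Veh and 15 lower, with a median of 2.92, or 2.87 with genes at few or no counts set to the fold their counts give. Of these 609, 307 (50.4%) were lower than DMSO_KLA and 77 higher. Of 110 tested genes that IFNβ induced 4-fold, 41 were higher than DMSO_Veh and 41 lower, and 104 were lower than DMSO_KLA and 1 higher.

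IFNβ-induced genes outside the KLA-induced set, which can include KLA-reduced genes, stood lower still. Of these 139, 83 were lower than DMSO_Veh and 16 higher, with a median of -1.13 beside -0.08 in DMSO_KLA. With KLA alone, 53 of the 139 were already lower than DMSO_Veh and 33 higher. Over all 532 IFNβ-induced genes, 195 were lower than DMSO_Veh and 184 higher, with a median of -0.10 (36.7% lower and 34.6% higher, against 34.5% and 38.6% when IFNβ-induced genes were taken without the second WT_Veh library), and among the 355 with at least 5 CPM in DMSO_Veh 136 were lower and 120 higher. The response downwards was retained in most genes, since 2053 of 2646 KLA-reduced genes (77.6%) were lower than DMSO_Veh and 42 higher, with a median of -1.30 beside -1.60 in DMSO_KLA. Under library totals the medians became 0.66 for KLA-induced genes without IFNβ induction, -0.08 for those with it, -0.51 for IFNβ-induced genes and -1.71 for KLA-reduced genes, so that the median of genes induced by both changed sign.

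**Figure D2:**
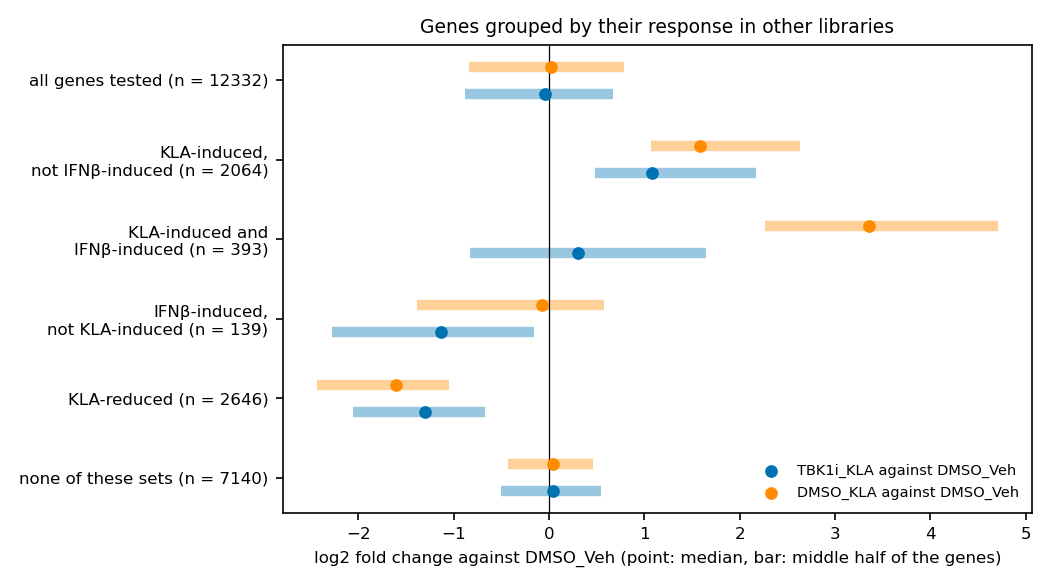
Log2 fold change against DMSO_Veh (x axis) for genes grouped by their response in other libraries, with the number of tested genes beside each name. Points are medians and bars run from the lower to the upper quartile of the genes, in blue for TBK1i_KLA and in orange for DMSO_KLA, which share the DMSO_Veh libraries. The medians of genes that both KLA and IFNβ induced lie at 0.31 and 3.35, and those of genes that KLA but not IFNβ induced lie at 1.08 and 1.59.

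The lists below were written from general knowledge, and their counts are set beside the 26.8% higher and 30.5% lower of all genes. The filter kept genes that reached enough counts in 2 libraries of any group, so the tested members of a list are not all of its members. In the NFκB system list, 17 of 19 genes were higher in TBK1i_KLA than in DMSO_Veh and 0 lower, with a median of 3.40 on the log2 scale, beside 2.90 in DMSO_KLA. Against DMSO_KLA, 2 were higher, 0 lower and 17 not called. Nfkbia (NM_010907, chromosome 12, 55489409 to 55492647) was at 45.4 and 45.7 CPM in DMSO_Veh, 1622 and 1624 CPM in DMSO_KLA and 1803 and 1869 CPM in TBK1i_KLA, a log2 fold change against DMSO_Veh of 5.33 ± 0.05 (SE, as after every log2 fold change). Both KLA groups were far above rest, and the inhibitor libraries were above the DMSO_KLA libraries by less than the fold threshold (0.18 ± 0.03). Tnfaip3, whose product A20 edits ubiquitin chains, was at 34.3 and 35.4 CPM in DMSO_Veh, 1558 and 1650.1 CPM in DMSO_KLA and 1393 and 1466 CPM in TBK1i_KLA. Nfkb2, which encodes the p100 subunit, was at 66.0 and 70.8 CPM at rest, 1433 and 1444 CPM with KLA alone and 1454 and 1489 CPM with the inhibitor. For both, the KLA groups differed by less than the fold threshold. The partner subunit gene Relb was at 36.6 and 39.6 CPM at rest, 198 and 201 CPM with KLA alone and 274 and 283 CPM with the inhibitor. The 2 genes called higher than DMSO_KLA were Bcl3, an atypical IκB (279.9 and 308 CPM against 164 and 155 CPM, 0.88 ± 0.05), and Tnip1, a partner of A20 (1382 and 1455 against 861 and 873 CPM, 0.71 ± 0.04). Nfkbiz, which supports later NFκB targets, rose from 24.7 and 27.4 CPM in DMSO_Veh to 682 and 730.3 CPM in TBK1i_KLA. The members not called against DMSO_Veh were Tnip2 (0.14 ± 0.11) and Ikbkg (0.58 ± 0.06), the latter just inside the fold threshold and past it without 4 of the 6 libraries in turn (0.59 to 0.60).

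Nearly every cytokine gene in the list stayed above rest. Of 23 tested cytokine genes, 22 were higher than DMSO_Veh and 1, Tnfsf10, lower, a call lost without the second DMSO_Veh (-1.15) or the first TBK1i_KLA library (-1.36), with a median of 6.70 (5.60 with genes at few or no counts set to the fold their counts give), beside 7.20 in DMSO_KLA. Against DMSO_KLA, 14 were lower and 4 higher. Il12b, the p40 chain of IL-12 and IL-23, was at 0.603 and 0.250 CPM in DMSO_Veh, 941 and 1077 CPM in DMSO_KLA and 1228 and 1246 CPM in TBK1i_KLA (11.45 ± 0.39, and 12.20 without the first DMSO_Veh library). Il1b, the precursor of IL-1β, was at 7.72 and 7.70 CPM at rest, 10547 and 11672 CPM with KLA alone and 8678 and 9082 CPM with the inhibitor. Tnf was at 10.4 and 10.5 CPM at rest, 4079 and 4323 CPM with KLA alone and 2779 and 2952 CPM with the inhibitor. Il1b was 1150.0-fold and Tnf 274-fold above rest with the inhibitor, and both were below DMSO_KLA by less than the fold threshold (-0.32 ± 0.03 and -0.55 ± 0.03). Il6 was at 0.362 and 0.125 CPM in DMSO_Veh, 769.8 and 932 CPM in DMSO_KLA and 339 and 366 CPM in TBK1i_KLA, which was 2.41-fold lower than DMSO_KLA and far above rest.

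Other cytokines lost more of their level. Il27, the p28 chain of IL-27, was at 566 and 602 CPM in DMSO_KLA and 135 and 139 CPM in TBK1i_KLA, against 0.844 and 0.188 CPM in DMSO_Veh. Il10, an anti-inflammatory cytokine, was at 0.724 and 0.689 CPM at rest, 20.3 and 20.5 CPM with KLA alone and 2.61 and 4.51 CPM with the inhibitor, so its level under the inhibitor lay between rest and KLA (2.30 ± 0.39 against DMSO_Veh, adjusted p = 2.91e-10). Edn1, the precursor of the vasoconstrictor endothelin-1, had a log2 fold change against DMSO_Veh of 4.88 ± 0.36 (5.65 without the second DMSO_Veh library) and was 22.5-fold below DMSO_KLA. Il1rn, the IL-1 receptor antagonist, and Il18 had log2 fold changes of 4.17 ± 0.07 and 1.97 ± 0.14 against DMSO_Veh and of -2.36 ± 0.04 and -2.76 ± 0.09 against DMSO_KLA. All 5 of these genes were called both above rest and below KLA alone.

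4 cytokine genes were higher with the inhibitor than with KLA alone. Il23a, the p19 chain of IL-23, had 0.121 and 0 CPM in DMSO_Veh, 4.42 and 4.98 CPM in DMSO_KLA and 128 and 149 CPM in TBK1i_KLA, a log2 difference from DMSO_KLA of 4.88 ± 0.17. Its ratio to DMSO_Veh was 2240.1 with an exact binomial 95% interval from 619 to 18507, because DMSO_Veh had few counts, and such intervals cover counting error only. Csf2, which encodes GM-CSF, was at 0 in both DMSO_Veh libraries, 7.51 and 8.45 CPM in DMSO_KLA and 35.6 and 40.8 CPM in TBK1i_KLA, at least 207-fold above a floor of 3 counts per library. Tnfsf9, the ligand of 4-1BB, was at 1.09 and 1.63 CPM at rest, 91.3 and 80.0 CPM with KLA alone and 184 and 212 CPM with the inhibitor. Lif, a cytokine of the IL-6 family, was at 0.302 and 0.564 CPM at rest, 4.86 and 4.63 CPM with KLA alone and 14.6 and 28.5 CPM with the inhibitor. Csf3, which encodes G-CSF, moved the other way, at 0 in DMSO_Veh, 6.41 and 6.36 CPM in DMSO_KLA and 1.80 and 1.80 CPM in TBK1i_KLA, at least 9.79-fold above the same floor.

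Chemokine genes differed widely in what was left. Of 22 tested, 16 were higher than DMSO_Veh and 1 lower, with a median of 3.26 beside 7.84 in DMSO_KLA, and 14 were lower and 3 higher than DMSO_KLA. The neutrophil attractants Cxcl1, Cxcl2, Cxcl3 and Cxcl5 stood above or near their DMSO_KLA level. Cxcl3 was at 0 and 0.376 CPM at rest, 118 and 148 CPM with KLA alone and 778 and 879 CPM with the inhibitor, and Cxcl1 was at 0.844 and 0.814 CPM at rest, 152 and 182 CPM with KLA alone and 611 and 702 CPM with the inhibitor. For both genes the KLA groups did not overlap, with log2 differences of 2.64 ± 0.12 and 1.97 ± 0.05. Cxcl5 was at 0 in both DMSO_Veh libraries, 0.442 and 0.463 CPM in DMSO_KLA and 4.61 and 3.95 CPM in TBK1i_KLA. Cxcl2 was at 3.26 and 4.32 CPM at rest, 1435 and 1682 CPM with KLA alone and 1956 and 2243 CPM with the inhibitor and was not called against DMSO_KLA (0.43 ± 0.10).

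Monocyte attractants of the CC chemokine family were lower than with KLA alone and higher than rest in the 5 genes given here. Ccl5, a T cell and monocyte attractant, was at 1.99 and 1.82 CPM in DMSO_Veh, 5506 and 5533 CPM in DMSO_KLA and 633 and 653 CPM in TBK1i_KLA, so that 336-fold induction remained. Ccl3 and Ccl4, also monocyte attractants, were 30.8-fold and 11.6-fold above rest and 8.42-fold and 14.1-fold below DMSO_KLA. Ccl2, the main ligand of CCR2, was at 2.96 and 2.32 CPM at rest, 538 and 541 CPM with KLA alone and 33.1 and 42.2 CPM with the inhibitor. Ccl7, another, was at 0.844 and 0.376 CPM at rest, 253 and 267 CPM with KLA alone and 5.11 and 4.74 CPM with the inhibitor, a log2 fold change against DMSO_Veh of 2.98 ± 0.36 (3.68 without the first DMSO_Veh library). The CXCR3 ligands, by contrast, lay at rest or a little above it. Cxcl10 was at 3.68 and 2.75 CPM in DMSO_Veh, 6031 and 6163 CPM in DMSO_KLA and 6.32 and 7.44 CPM in TBK1i_KLA (1.08 ± 0.19 against DMSO_Veh, adjusted p = 2.14e-08). Cxcl9 was at 0.603 and 0 CPM at rest, 222 and 232 CPM with KLA alone and 0.902 and 1.02 CPM with the inhibitor, and its call against rest was lost without the second DMSO_Veh library (0.65). Cxcl11 was at 0 in the DMSO_Veh and TBK1i_KLA libraries and at 47.4 and 46.4 CPM in DMSO_KLA. Ccl17 and Ccl22, ligands of CCR4, remained induced. Ccl22 was at 0.724 and 0.313 CPM at rest, 1113 and 1275 CPM with KLA alone and 494 and 474 CPM with the inhibitor. Ccl17 was at 0 in both DMSO_Veh libraries, 12.6 and 11.5 CPM in DMSO_KLA and 13.1 and 12.4 CPM in TBK1i_KLA, at least 69.3-fold above the floor.

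**Figure D3:**
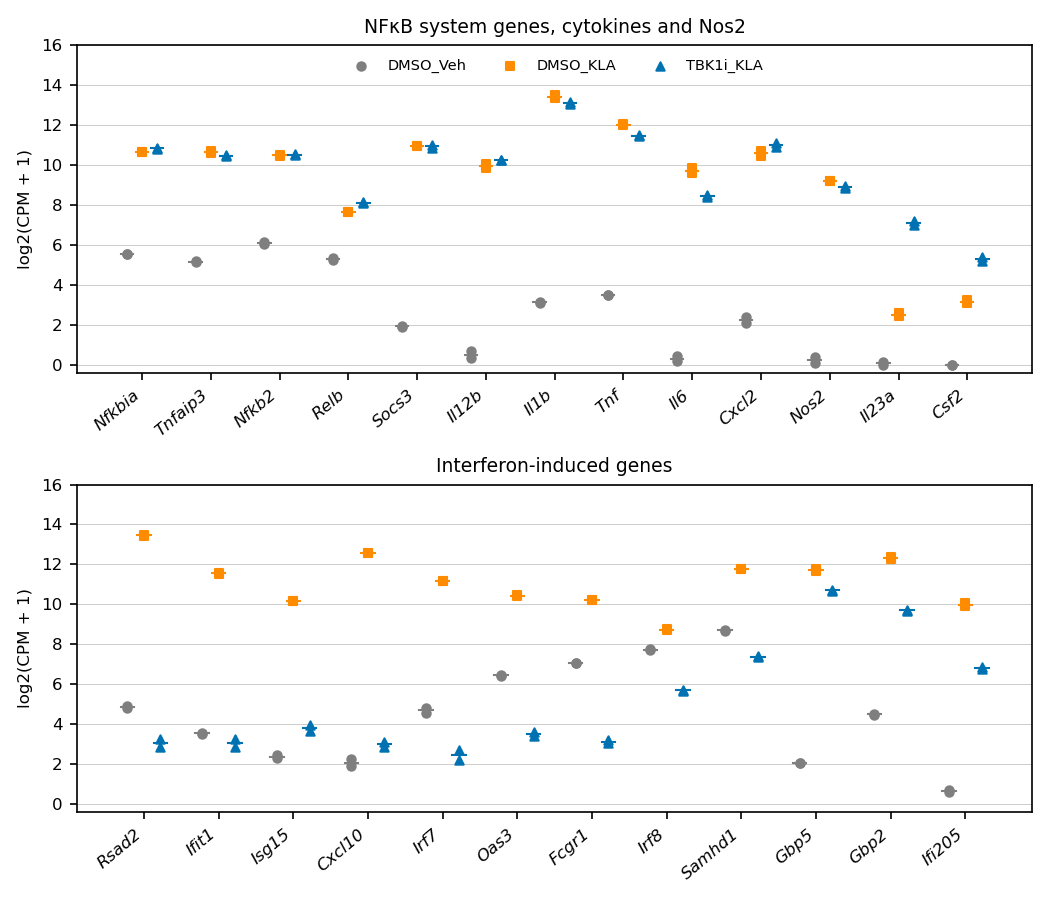
Level of 25 genes in each of the 6 libraries, as log2(CPM + 1) on the y axis, with grey circles for DMSO_Veh, orange squares for DMSO_KLA and blue triangles for TBK1i_KLA, and short lines for the mean of the 2 values. In the upper panel the blue points lie near the orange ones for Nfkbia, Tnfaip3, Nfkb2 and Socs3 and above them for Il23a and Csf2. In the lower panel the blue points lie below the grey ones for Rsad2, Irf7, Oas3, Fcgr1, Irf8 and Samhd1 and above them for Gbp5, Gbp2 and Ifi205.

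Feedback regulators divided into some that matched KLA alone and some that lost most of their induction. Of 27 genes for dual-specificity phosphatases, RNA-binding proteins of the tristetraprolin family, SOCS proteins and related regulators, 19 were higher than DMSO_Veh and 5 lower, with a median of 1.86 beside 2.75 in DMSO_KLA. Against DMSO_KLA, 6 were higher, 10 lower and 11 not called. Socs3, which blocks signalling by IL-6 family receptors, was at 2.71 and 2.88 CPM at rest, 2002 and 1997 CPM with KLA alone and 1894 and 2064 CPM with the inhibitor, and the KLA groups overlapped. Socs1, which restrains interferon receptors, was lower than with KLA alone (1.51 and 1.31 CPM at rest, 225 and 202 CPM with KLA alone and 81.9 and 88.0 CPM with the inhibitor). Cish, which restrains STAT5, was higher (0.181 and 0.438 CPM at rest, 62.8 and 57.2 CPM with KLA alone and 133 and 157 CPM with the inhibitor). Dusp1, Zfp36 and Peli1 stood nearer to rest than to KLA alone, and their calls above rest were lost under library totals. Dusp1, the phosphatase of p38 and JNK, was at 37.2 and 41.3 CPM at rest, 246 and 233 CPM with KLA alone and 65.7 and 83.1 CPM with the inhibitor, a log2 difference from DMSO_KLA of -1.70 ± 0.06. Zfp36, which encodes tristetraprolin, was 1.66-fold above rest and 3.67-fold below DMSO_KLA, and Peli1, an E3 ligase of the TRIF branch, was 1.88-fold above rest and 8.95-fold below DMSO_KLA. Dusp6, the phosphatase of ERK, fell below rest, at 21.8 and 21.3 CPM at rest, 20.8 and 21.4 CPM with KLA alone and 4.31 and 3.83 CPM with the inhibitor, and Gadd45g fell below it by 11.5-fold (log2 -3.53 ± 0.38, and -4.18 without the second TBK1i_KLA library). For these 2 genes the DMSO_Veh and DMSO_KLA libraries overlapped, and both TBK1i_KLA libraries lay below them.

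Transcription factors of the AP-1, EGR, MAF, KLF and NR4A families were mixed, with 13 of 26 higher than DMSO_Veh and 9 lower (11 and 11 under library totals) and a median of 0.66. Atf3, a stress-induced repressor, was at 418 and 426 CPM at rest, 555 and 585 CPM with KLA alone and 62.4 and 71.2 CPM with the inhibitor. It was higher with KLA alone than at rest and 6.33-fold below rest with the inhibitor. Fos and Jun, the classical AP-1 partners, were lowest with the inhibitor. Fos was at 66.6 and 68.6 CPM at rest, 25.6 and 22.5 CPM with KLA alone and 6.02 and 6.20 CPM with the inhibitor, and no libraries of different groups overlapped. Jun lay 3.14-fold below rest and 2.00-fold below DMSO_KLA. Maff and Nr4a3 moved the other way and exceeded KLA alone, with log2 differences from DMSO_KLA of 1.58 ± 0.09 and 2.23 ± 0.13 and from DMSO_Veh of 5.72 ± 0.21 and 6.99 ± 0.39. Junb, Cebpb and Cebpd were above DMSO_Veh (2.21 ± 0.04, 2.69 ± 0.26 and 4.20 ± 0.08) and were not called against DMSO_KLA.

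The antiviral list held the largest differences from KLA alone of any list. All 47 genes were higher in DMSO_KLA than in DMSO_Veh, with a median of 4.64, and all 47 were lower in TBK1i_KLA than in DMSO_KLA, with a median of -6.03, under TMM and under library totals. Against rest, 23 were lower, 14 higher and 10 not called, with a median of -0.50 (26 lower and 10 higher under library totals). Rsad2 (NM_021384, chromosome 12, 26442743 to 26456452), whose product viperin makes a chain-terminating nucleotide, was at 27.1 and 28.5 CPM at rest, 11100.0 and 11287 CPM with KLA alone and 6.22 and 8.46 CPM with the inhibitor, which was 3.81-fold below rest (-1.93 ± 0.13, adjusted p = 3.94e-64). Oas3 (NM_145226, chromosome 5, 120753098 to 120777659) was at 88.0 and 84.2 CPM at rest, 1389 and 1369 CPM with KLA alone and 9.63 and 11.1 CPM with the inhibitor and lay 8.35-fold below rest. Both TBK1i_KLA libraries were below both DMSO_Veh libraries for each of these genes. The related synthetase genes Oas2, Oas1a and Oasl2, which make or mimic makers of the activator of RNase L, were 7.12-, 2.40- and 5.96-fold below rest. Samhd1, which depletes nucleotides, was at 415 and 407 CPM at rest, 3443 and 3449 CPM with KLA alone and 166 and 163 CPM with the inhibitor. The RNA sensor genes parted, since Ddx58 and Dhx58 were below rest (-1.49 ± 0.09 and -2.07 ± 0.15) and Ifih1, which encodes MDA5, was above it (0.73 ± 0.06).

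Several antiviral genes lay at about the resting level. Ifit1, which binds foreign RNA caps, was at 10.4 and 10.8 CPM at rest, 2936 and 3048 CPM with KLA alone and 8.52 and 6.32 CPM with the inhibitor, 1.41-fold below rest and within the fold threshold, which it passed without the first TBK1i_KLA library (-0.74). Bst2, which tethers virions, was at 39.5 and 38.9 CPM at rest, 531 and 514 CPM with KLA alone and 38.6 and 38.2 CPM with the inhibitor, and Eif2ak2, the kinase PKR, was not called against rest either (0.02 ± 0.07, adjusted p = 0.768). Other members were above rest. Isg15, a ubiquitin-like modifier, was at 4.40 and 3.88 CPM at rest, 1138 and 1129.6 CPM with KLA alone and 11.5 and 14.7 CPM with the inhibitor, 3.13-fold above rest, and Mx1, a dynamin-like GTPase, was 2.77-fold above it. Ifi205, a PYHIN gene, was at 0.603 and 0.501 CPM at rest, 949 and 1058 CPM with KLA alone and 105 and 115 CPM with the inhibitor, 195-fold above rest, and Parp14, an ADP-ribosyltransferase, was 3.55-fold above it. These genes were nonetheless all lower than with KLA alone, by 87.1-, 169-, 9.13- and 4.20-fold. Genes of the Ifit, Oas and Ifi200 families have close copies, and counts between copies are uncertain.

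The interferon-inducible GTPases lay on both sides of rest. All 16 tested were higher in DMSO_KLA than in DMSO_Veh and lower in TBK1i_KLA than in DMSO_KLA, and against rest 6 were higher and 7 lower, with a median of 0.15 (-0.25 under library totals). Gbp5, a guanylate-binding protein that coats bacteria and vacuoles, was at 3.08 and 3.13 CPM at rest, 3204 and 3479 CPM with KLA alone and 1688 and 1634 CPM with the inhibitor, 533-fold above rest. Gbp2 was at 21.8 and 20.9 CPM at rest, 4919 and 5223 CPM with KLA alone and 847 and 816 CPM with the inhibitor. Gbp2, Gbp3 and Gbp7 were 38.9-, 29.2- and 23.5-fold above rest and 6.10-, 7.27- and 3.98-fold below DMSO_KLA. Gbp9, of the same family, was below rest (-0.96 ± 0.11). Of the immunity-related GTPases, which act on pathogen vacuoles, Ifi47 was above rest (0.91 ± 0.09), Igtp was not called against it (-0.36 ± 0.11), and Irgm1, Irgm2 and Iigp1 were below it (-0.71 ± 0.07, -0.75 ± 0.08 and -1.52 ± 0.46, the last being -2.40 without the first TBK1i_KLA library). Irgm1 was at 52.5 and 54.5 CPM at rest, 1093 and 1165 CPM with KLA alone and 29.2 and 36.8 CPM with the inhibitor, and its call was lost without the first TBK1i_KLA library (-0.54). These families also share sequence between copies, and the same caution applies to their counts.

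**Figure D4:**
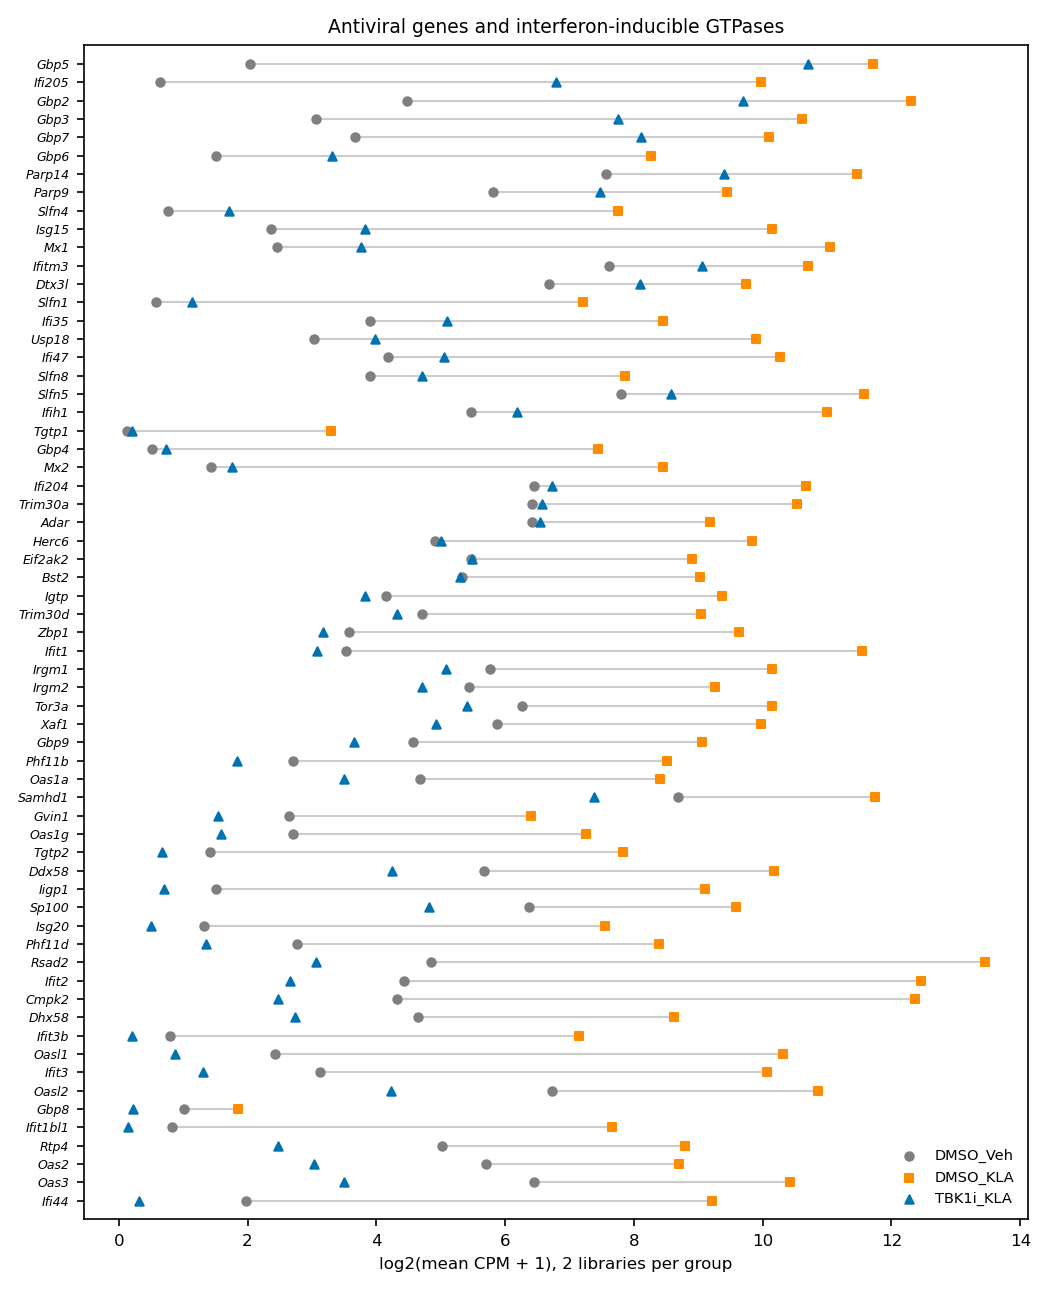
Mean level over 2 libraries, as log2(CPM + 1) on the x axis, for the 63 tested antiviral and interferon-inducible GTPase genes, ordered by their log2 fold change in TBK1i_KLA against DMSO_Veh. Grey circles are DMSO_Veh, orange squares DMSO_KLA, blue triangles TBK1i_KLA, and the grey line joins DMSO_Veh and DMSO_KLA. The blue triangles lie left of the grey circles for the lower part of the plot, with Oas3, Oas2 and Rtp4 among the farthest, and well to the right for Gbp5, Ifi205, Gbp2, Gbp3 and Gbp7.

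Components of interferon signalling differed by step. Ifnb1, the gene of interferon β, was at 0 in both DMSO_Veh and both TBK1i_KLA libraries and at 4.97 and 4.74 CPM in DMSO_KLA. The receptor chain genes Ifnar1 and Ifnar2 were above rest (1.80 ± 0.04 and 1.29 ± 0.05) and were not called against DMSO_KLA. Jak2, which serves many cytokine receptors, was 23.2-fold above rest and not called against DMSO_KLA either (-0.02 ± 0.04). Transcription factors of the pathway lay on both sides. Irf7, which amplifies interferon production, was at 27.1 and 22.8 CPM at rest, 2264 and 2271 CPM with KLA alone and 3.61 and 5.41 CPM with the inhibitor. Irf8, a macrophage lineage factor, was at 213 and 206 CPM at rest, 429 and 413 CPM with KLA alone and 51.8 and 49.3 CPM with the inhibitor. For both of these the TBK1i_KLA libraries were below the DMSO_Veh libraries (-2.48 ± 0.17 and -2.05 ± 0.06), and the same held for Irf9 (-0.88 ± 0.08). Stat2 and Irf1 were above rest (1.21 ± 0.05 and 2.41 ± 0.05) and below DMSO_KLA (-2.87 ± 0.05 and -0.78 ± 0.04). Over the list 9 of 19 were higher than rest and 5 lower, with a median of 0.32 (0.00 under library totals).

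Antigen presentation genes of MHC class I kept part of their induction, and those of class II lay on both sides of rest. In the MHC class I list, 12 of 19 were higher than DMSO_Veh and 0 lower, with a median of 0.86, and 16 were lower than DMSO_KLA. Under library totals 8 were higher than DMSO_Veh and 1 lower, with a median of 0.44. H2-K1, a class I heavy chain with close copies, was at 747 and 756 CPM at rest, 2552 and 2591 CPM with KLA alone and 1809.8 and 1864 CPM with the inhibitor. Psme2, a proteasome activator subunit, was 6.13-fold above rest. Tap1, a peptide transporter, lay nearer to rest (56.0 and 57.4 CPM at rest, 1169.9 and 1188 CPM with KLA alone and 88.0 and 94.1 CPM with the inhibitor), and Nlrc5, the class I transactivator, was not called against it (0.06 ± 0.08, adjusted p = 0.482). In the MHC class II list, 2 of 7 tested genes were higher than rest and 2 lower, with a median of 0.30 (-0.11 under library totals), beside 0.96 in DMSO_KLA. Against DMSO_KLA, 6 of the 7 were lower and 0 higher. Cd74, the invariant chain, was above rest (0.98 ± 0.04) and Ciita, the class II transactivator, below it (-0.71 ± 0.18, adjusted p = 8.84e-05), the latter call being lost without the second TBK1i_KLA library (-0.51).

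The enzymes of antimicrobial metabolism remained high. All 7 tested genes of nitric oxide, arginine and itaconate metabolism were higher than DMSO_Veh, with a median of 3.00, beside 4.32 in DMSO_KLA. Nos2, inducible nitric oxide synthase, was at 0.302 and 0.0626 CPM at rest, 588 and 597 CPM with KLA alone and 472 and 491 CPM with the inhibitor, and the KLA groups differed by less than the fold threshold (-0.30 ± 0.04). Acod1, which makes itaconate, was at 7.12 and 6.64 CPM at rest, 13042 and 13317 CPM with KLA alone and 6081 and 6079.7 CPM with the inhibitor, 2.17-fold below KLA alone. Gch1, which starts the synthesis of the cofactor of Nos2, was 8.01-fold above rest, and Ass1, which regenerates arginine, 2.49-fold. Prostaglandin synthesis genes went both ways, with 5 of 12 tested genes higher than rest and 6 lower. Ptgs2, inducible cyclooxygenase, was at 4.28 and 3.32 CPM at rest, 6386 and 7232 CPM with KLA alone and 2886 and 3253 CPM with the inhibitor, and Ptges, inducible prostaglandin E synthase, was 105-fold above rest. Ptgs1, the constitutive cyclooxygenase, and Hpgds, a prostaglandin D synthase, were below rest (-1.95 ± 0.16 and -2.42 ± 0.06) and were not called against DMSO_KLA.

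Antioxidant and metal-binding genes stood above KLA alone. Of 15 tested, 13 were higher than DMSO_Veh and 1 lower, with a median of 2.22 beside 0.94 in DMSO_KLA, and 10 were higher than DMSO_KLA and 1 lower (11 and 1 under library totals). Slc7a11, the cystine transporter, was at 4.64 and 5.26 CPM at rest, 149 and 165 CPM with KLA alone and 786 and 786 CPM with the inhibitor (2.33 ± 0.05 against DMSO_KLA). Srxn1, sulfiredoxin, was at 122 and 126 CPM at rest, 149 and 164 CPM with KLA alone and 527 and 493 CPM with the inhibitor, and Txnrd1, thioredoxin reductase, was 3.15-fold above KLA alone. Sqstm1, the autophagy receptor p62, was at 622 and 638 CPM at rest, 898 and 939 CPM with KLA alone and 4271 and 4283 CPM with the inhibitor. The metallothionein gene Mt2 and the glutamate-cysteine ligase genes Gclm and Gclc were also above DMSO_KLA (1.80 ± 0.05, 1.05 ± 0.07 and 1.44 ± 0.09). The list was not uniform, since Sod2, the mitochondrial superoxide dismutase and an NFκB target, was 41.2-fold above rest and not called between the KLA groups (-0.03 ± 0.03). Hmox1, heme oxygenase 1, was called against neither group (0.19 ± 0.04 against rest).

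Glycolysis and hypoxia genes were mostly higher, with 15 of 22 above DMSO_Veh and 1 below it (13 and 4 under library totals) and a median of 1.04 beside 0.56 in DMSO_KLA, and 11 were higher and 3 lower than DMSO_KLA. Hif1a, the hypoxia-inducible factor, was at 78.0 and 76.0 CPM at rest, 302 and 316 CPM with KLA alone and 696 and 702 CPM with the inhibitor. The glucose transporter gene Slc2a1, the lactate exporter gene Slc16a3 and Hk2, a hexokinase gene, were 11.9-, 8.63- and 5.52-fold above rest and also above KLA alone (1.13 ± 0.05, 1.82 ± 0.06 and 0.98 ± 0.06). The other hexokinase genes Hk1 and Hk3 were below KLA alone (-1.15 ± 0.05 and -1.86 ± 0.04) and not called against rest. Vegfa, a growth factor for vessels, was reduced by KLA alone and was not called against rest with the inhibitor (70.0 and 66.5 CPM at rest, 7.85 and 9.26 CPM with KLA alone and 47.2 and 52.3 CPM with the inhibitor). Gapdh, a member of the list, has near-identical copies and was counted at only 2.01 and 1.69 CPM in TBK1i_KLA, so its call is uncertain.

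Cholesterol synthesis genes were mostly above rest in both KLA groups. Of 22, 16 were higher than DMSO_Veh and 2 lower, with a median of 1.72 beside 1.64 in DMSO_KLA, and 7 were lower and 2 higher than DMSO_KLA (0 lower and 4 higher under library totals). Srebf2, which drives the pathway, was 3.63-fold above rest and not called against DMSO_KLA (-0.04 ± 0.04). Among the 12 tested LXR target genes 2 were higher than rest and 4 lower (0 and 7 under library totals), with a median of -0.49. The cholesterol exporter genes parted, since Abca1 was not called against rest (0.32 ± 0.04) and Abcg1 was 3.43-fold below it.

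Costimulatory and adhesion genes were above rest with 1 exception. Of 13 tested, 12 were higher than DMSO_Veh, with a median of 4.27, and Cd86 was lower. Cd86, which binds CD28 on T cells, was at 9.23 and 9.27 CPM at rest, 94.3 and 118 CPM with KLA alone and 4.81 and 3.95 CPM with the inhibitor (-1.07 ± 0.19 against rest, adjusted p = 9.24e-09). Cd80, which binds the same receptor, was at 7.30 and 6.64 CPM at rest, 14.7 and 17.2 CPM with KLA alone and 36.5 and 35.3 CPM with the inhibitor, and so stood above both other groups. Cd40 and the integrin ligand gene Icam1 were 348-fold and 80.4-fold above rest and not called against DMSO_KLA. Cd274, which encodes a ligand of PD-1, was 4.67-fold above rest and 4.97-fold below DMSO_KLA.

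Of 21 complement, acute phase and matrix genes, 14 were higher than rest and 2 lower, with a median of 2.74. C3 and Cfb, which act together in the alternative pathway, were 36.0-fold and 11.5-fold above rest and 3.37-fold and 17.3-fold below DMSO_KLA. Saa3, an acute phase protein, was 1332-fold above rest. Mmp9 stood above KLA alone (0.97 ± 0.04) and Mmp13, another matrix protease, below it (-2.02 ± 0.04). Plau, urokinase, was below rest, at 87.0 and 75.7 CPM at rest, 55.0 and 59.9 CPM with KLA alone and 8.32 and 6.54 CPM with the inhibitor, while the gene of its receptor, Plaur, was 11.3-fold above it.

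Among 22 inflammasome and cell death genes, 14 were higher than rest and 1 lower, with a median of 1.42, and 10 were lower than DMSO_KLA. Nlrp3, an inflammasome sensor, was at 51.1 and 49.3 CPM at rest, 1205 and 1222 CPM with KLA alone and 1562 and 1603 CPM with the inhibitor. The caspase genes Casp1 and Casp4 were 2.41-fold and 8.01-fold above rest and below DMSO_KLA (-1.51 ± 0.05 and -0.85 ± 0.05). Mlkl, the effector of necroptosis, was not called against rest (0.32 ± 0.14). The antiapoptotic genes Birc3 and Cflar were above rest (2.98 ± 0.05 and 3.76 ± 0.04). In the stress and p53 list 10 of 20 were higher and 3 lower, with a median of 0.71. Cdkn1a, the cell cycle inhibitor p21, was 12.6-fold above rest, and Bbc3, the proapoptotic protein PUMA, 7.99-fold below it.

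Genes of the TLR pathway itself were mostly above rest. Of 25 adaptor, kinase and TBK1-complex genes, 17 were higher and 4 lower (13 and 6 under library totals), with a median of 1.10 beside 1.16 in DMSO_KLA. Tbk1 itself (NM_019786, chromosome 10, 121546456 to 121586794) was at 87.5 and 92.9 CPM at rest and 163 and 167 CPM with the inhibitor, a log2 difference of -0.55 ± 0.05 from KLA alone. Its RNA does not measure the activity of the kinase and so does not check the inhibitor. Ikbke, which encodes the related kinase IKKε, Ticam1, which encodes TRIF, and the ubiquitin ligase gene Traf6 were 4.43-, 2.21- and 1.63-fold above rest. The calls of Tbk1 and Traf6 against rest were lost under library totals. Traf1, an NFκB target, was 49.5-fold above it. Tmem173, which encodes STING, was below rest (-1.46 ± 0.11).

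Myeloid surface receptor genes were more often below rest, with 10 of 32 tested higher and 16 lower and a median of -0.58 beside 0.64 in DMSO_KLA. Tlr2, the receptor for bacterial lipopeptides, was 8.71-fold above rest, and Cd14, the co-receptor of TLR4, was above both groups (355 and 347 CPM at rest, 2637 and 2726 CPM with KLA alone and 5339.7 and 5523 CPM with the inhibitor). The nucleic acid sensors of endosomes were below rest. Tlr9 was at 36.5 and 36.0 CPM at rest, 100.2 and 84.4 CPM with KLA alone and 4.81 and 3.61 CPM with the inhibitor. Tlr3 and Tlr7 were 2.13-fold and 1.61-fold below rest and 28.8-fold and 3.87-fold below DMSO_KLA. Ccr2, a chemokine receptor, was 25.4-fold below rest. Csf1r, the M-CSF receptor, was at 2514 and 2540.5 CPM at rest, 1402 and 1454 CPM with KLA alone and 2526 and 2496 CPM with the inhibitor, so that it was reduced by KLA alone and not called against rest with the inhibitor (adjusted p = 0.801).

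Cell division genes were low in both KLA groups. Of 32, 30 were lower than DMSO_Veh and 2, Mki67 and Tyms, higher, with a median of -1.62 beside -1.75 in DMSO_KLA. Rrm2, a ribonucleotide reductase subunit, was at 13.0 and 10.8 CPM at rest, 0.773 and 0.810 CPM with KLA alone and 1.20 and 1.35 CPM with the inhibitor. Mki67, the proliferation marker Ki-67, went against the list, at 74.9 and 80.8 CPM at rest, 112 and 131 CPM with KLA alone and 414 and 406 CPM with the inhibitor (1.75 ± 0.05 against DMSO_KLA). Mcm6 and Pcna, which act in replication, were 4.66-fold and 2.25-fold below rest, and both were at least as high with KLA alone as at rest (57.1 and 60.8 CPM at rest, 77.0 and 71.5 CPM with KLA alone and 13.6 and 11.5 CPM with the inhibitor for Mcm6). Lysosome genes fell by small amounts. Of 25, 17 were lower than rest and 1 higher, with a median of -0.63 (22 lower and 0 higher under library totals). The 1 called higher, Atp6v1h, a proton pump subunit, had a fold of 1.52 and lost its call without the first DMSO_Veh or the second TBK1i_KLA library (both 0.53 on the log2 scale). Ctsb, cathepsin B, was 1.66-fold below rest and Atp6v0d2, another proton pump subunit, 3.88-fold.

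**Figure D5:**
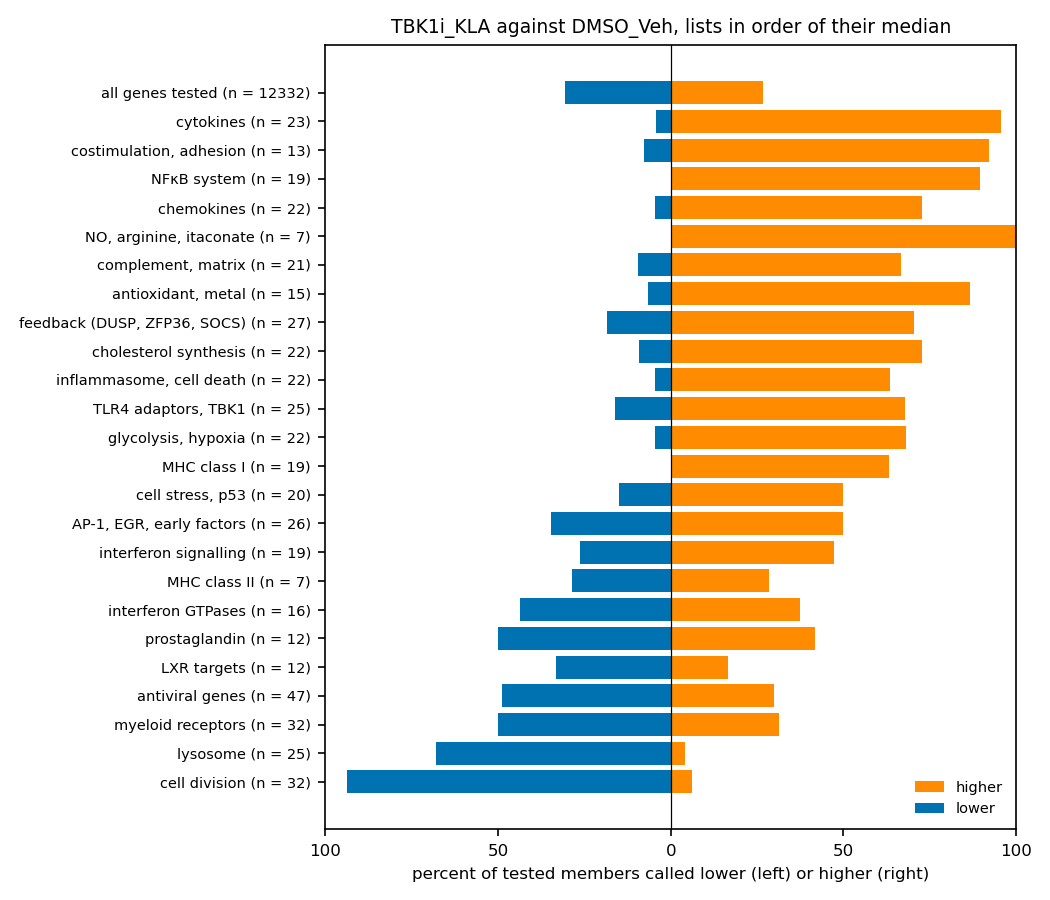
Percent of tested members called higher (orange, right) or lower (blue, left) in TBK1i_KLA against DMSO_Veh, for all genes and for 24 lists in order of their median log2 fold change, with the number tested beside each name. All genes stand at 26.8% higher and 30.5% lower, the cytokine list at 95.7% higher, and the cell division list at 93.8% lower.

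The genes with the largest rise over DMSO_Veh, among the 2830 called higher with at least 5 CPM in either group, were Cxcl3, Csf2, Il12b, Nos2, Has1, Il23a, Shisa3, Mir155hg, Lad1, Il6, Saa3 and Ccl17. The order is that of fitted folds over few or no counts at rest. Csf2, Has1 and Ccl17 were at 0 in both DMSO_Veh libraries, and by their bounds (at least 207-, 126- and 69.3-fold) they would stand below Il1b (1150.0-fold), which is not among the 12. Mir155hg, the host gene of miR-155, was at 0.121 and 0 CPM at rest, 107 and 114 CPM with KLA alone and 116 and 122 CPM with the inhibitor. Has1, a hyaluronan synthase, was at 0 in both DMSO_Veh libraries, 12.4 and 16.5 CPM in DMSO_KLA and a mean of 23.2 CPM over both TBK1i_KLA libraries, at least 126-fold above the floor. Among 851 KLA-induced genes without IFNβ induction that had at least 20 CPM in TBK1i_KLA and differed by less than 1.5-fold between the KLA groups, the largest rises were of Il12b, Nos2, Shisa3, Mir155hg, Il1b, Tarm1, Socs3, Rasgrp1, Cxcl2 and Adora2a. Rasgrp1, a Ras activator, was at 0.241 and 0.0626 CPM at rest, 113 and 119 CPM with KLA alone and 107 and 114 CPM with the inhibitor. Adora2a, an adenosine receptor that restrains macrophage activation, was 448-fold above rest (0.11 ± 0.05 against DMSO_KLA).

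The largest falls below DMSO_Veh, among 2659 genes chosen in the same way, included those of Galnt9, Gpr34, Cxcr4, Fam214a, Rasgrp3, Fam83f, Cmah, Etl4, Rab19, Arhgap19 and Engase, which were KLA-reduced in other libraries as well. Several had few or no counts in TBK1i_KLA, and the order is again that of fitted folds. Cxcr4 (NM_009911, chromosome 1, 128588199 to 128592299), the receptor of CXCL12, was at 278 and 284 CPM at rest, 2.10 and 1.85 CPM with KLA alone and 2.21 and 2.71 CPM with the inhibitor, 115-fold below rest. Rasgrp3, another Ras activator, was at 48.1 and 47.3 CPM at rest, 0.221 and 0.463 CPM with KLA alone and 0.401 and 0.564 CPM with the inhibitor. For both the KLA groups overlapped or differed by less than their error, and both lay far below rest. Gpr34, a lysophospholipid receptor, had a ratio of DMSO_Veh to TBK1i_KLA of 143 (exact binomial 95% interval 39.3 to 1181), since the inhibitor libraries had few counts.

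Of 343 IFNβ-induced genes with at least 5 CPM at rest and a name other than that of a gene model or clone, the lowest in TBK1i_KLA included Rhov, Cd300lf, Rhod, Dio2, Fcgr1, Oas1c, Hmga2-ps1, Rab7b and Tmem104. Fcgr1 (NM_010186, chromosome 3, 96282909 to 96293969), the high-affinity IgG receptor, was at 134 and 132 CPM at rest, 1187 and 1176 CPM with KLA alone and 7.22 and 8.23 CPM with the inhibitor, 17.3-fold below rest. Rab7b, a regulator of endosomal trafficking, was at 288 and 289 CPM at rest, 92.6 and 97.6 CPM with KLA alone and 19.2 and 17.1 CPM with the inhibitor, so that it was reduced by KLA alone and lower again with the inhibitor. KLA-induced genes that lay lowest relative to rest, chosen after their values were seen from 1356 with at least 20 CPM in DMSO_Veh, were Fcgr1, Pde7b, Tlr9, Oas3, Adap2, Oas2, Rtp4, Oasl2, Irf7 and Siglec1. Siglec1, the sialic acid receptor CD169, was at 166 and 161 CPM at rest, 222 and 220.2 CPM with KLA alone and 29.3 and 29.2 CPM with the inhibitor, and Adap2 was 7.99-fold below rest.

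Against DMSO_KLA, the largest falls among 1805 genes were of Cxcl11, Ifi44, Ifit1bl1, Rsad2, Oasl1, Cmpk2, Ifit2, Cxcl10, Tnfsf10 and Iigp1, of which 9, all but Cxcl11, were IFNβ-induced. The largest rises among 1436 genes included those of Il23a, Plcl1, St6gal1, Rps6ka5, Rhou, Nav2, Ppp1r13l, Rnd1 and Uck2. Rhou, an atypical small GTPase, was at 2.71 and 3.82 CPM at rest, 13.6 and 10.5 CPM with KLA alone and 156 and 157 CPM with the inhibitor, and Rnd1, of the same superfamily, was 235-fold above rest and 11.4-fold above DMSO_KLA. St6gal1 and Nav2 showed another pattern, in that they were reduced by KLA alone and the inhibitor libraries lay between. St6gal1, a sialyltransferase, was at 133 and 133 CPM at rest, 0.773 and 1.16 CPM with KLA alone and 14.9 and 14.3 CPM with the inhibitor.

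Some genes stood away from rest in TBK1i_KLA without a call in the other KLA libraries. Of 3299 genes higher than DMSO_Veh, 1624 (49.2%) were KLA-induced in both other KLA comparisons, and 910 were called neither higher nor lower in either of them. Of 3767 lower genes, 2053 (54.5%) were KLA-reduced in both, and 594 were called neither higher nor lower in either. Of the genes called in DMSO_KLA against the same DMSO_Veh libraries, 478 of 3647 higher and 292 of 3619 lower genes likewise had no call either way. The largest of these rises, chosen after their values were seen among 584 genes, included those of Phldb1, Map3k5, Kctd12, Herpud1, Pspc1, Arhgap35, Bcor, Map3k6 and Zfp598. Map3k5, the stress kinase ASK1, was at 15.1 and 17.1 CPM at rest, 24.3 and 22.3 CPM with KLA alone and 144 and 146 CPM with the inhibitor. Herpud1, which acts in protein degradation at the endoplasmic reticulum, was 5.77-fold above rest, and the corepressor gene Bcor was at 53.4 and 52.8 CPM at rest, 51.7 and 63.4 CPM with KLA alone and 243 and 254 CPM with the inhibitor. The largest falls, chosen in the same way from 209 genes, were of Ctgf, Plekho1, Ehd4, Evi2b, Evi2, Asph, Folr2, Vipas39, Evl and Uvrag. Ehd4, which acts in endosomal recycling, was at 469 and 485 CPM at rest, 564 and 585 CPM with KLA alone and 65.2 and 62.6 CPM with the inhibitor. Folr2, a folate receptor, and Uvrag, which acts in autophagy, were 4.95-fold and 4.47-fold below rest. Evi2 and Evi2b overlap on the same strand of chromosome 11, so their counts are not independent. All of the genes named in this pair of lists were also called in the same direction against DMSO_KLA, and no library had the inhibitor without KLA.

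Among 693 genes that were KLA-reduced elsewhere, the largest rises over rest, also chosen after their values were seen, included those of Mmd, Fam107b, Cuedc1, Rps6ka5, Grk5, Frmd6, Ankrd44, Pgp and Socs5. Ankrd44 was at 91.3 and 100.3 CPM at rest, 26.6 and 25.6 CPM with KLA alone and 234 and 229.7 CPM with the inhibitor, and Mmd, a gene of monocyte to macrophage differentiation, was 4.46-fold above rest.

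Lastly, of the 7 genes that the study follows, 4 were higher than rest and 1 lower. Cp, ceruloplasmin, was at 2.41 and 3.01 CPM at rest, 387 and 400.3 CPM with KLA alone and 164 and 144 CPM with the inhibitor. Il12a, the p35 chain of IL-12, was at 0 and 0.125 CPM at rest, 58.7 and 67.2 CPM with KLA alone and 35.1 and 37.3 CPM with the inhibitor. Both were above rest and below DMSO_KLA (-1.35 ± 0.05 and -0.80 ± 0.09), as was Ptgs2. Ncor1, the nuclear receptor corepressor, and Hdac3, its deacetylase partner, were called against neither group. Ppargc1b, which encodes PGC1β, was at 3.26 and 3.76 CPM at rest, 13.5 and 12.7 CPM with KLA alone and 2.71 and 1.69 CPM with the inhibitor, a log2 fold change against rest of -0.65 ± 0.30 (adjusted p = 0.0344), and its call was lost without the second DMSO_Veh (-0.55) or the second TBK1i_KLA library (-0.36).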

How the data were processed

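Poly(A) RNA-seq libraries with dUTP strand marking were made from BMDMs 6 h after KLA or vehicle. The authors aligned reads with STAR to mm10 and counted them over genes with HOMER, per the submitters' processing notes and the methods, and the deposited counts are whole read counts per gene. The methods state that only strand-specific reads in exons were counted, although the header of the deposited counts names no strand option. Of 24940 genes listed, 12332 passed edgeR's filterByExpr over the 6 libraries, and the 1346 genes under 250 bases were kept in that step. Counts were scaled by TMM and tested with edgeR 4.0.16 (quasi-likelihood, robust, R 4.3.3, limma 3.58.1), 2-sided, with Benjamini-Hochberg adjustment. Calls needed an adjusted p under 0.05 together with a change of more than 1.5-fold, and the SE is the Wald error of that fit, never under the Poisson value. Dispersions were estimated per gene over the 3 groups together, and the biological coefficient of variation common to all genes was 0.031. The RGFP966, Pgc1b_flox and IFNβ tables were fitted alone in the same way. Tables and figures used Python 3.11.15, pandas 2.3.3 and matplotlib 3.10.9.

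The members and lists were chosen with earlier results of these data known. The 25 lists hold 518 genes, of which 508 were tested. Beyond list members, the rule named the 12 called genes with the largest change each way against DMSO_Veh with a mean of at least 5 CPM in either group, the 10 largest each way against DMSO_KLA by the same limit, the 10 KLA-induced genes without IFNβ induction that were highest while differing under 1.5-fold from DMSO_KLA with at least 20 CPM in TBK1i_KLA, and the 10 IFNβ-induced genes lowest in TBK1i_KLA with at least 5 CPM in DMSO_Veh. Gene models, Rik and LOC names were skipped. Orders are of fitted folds, which depend on the prior count where a group had few or no counts. Genes said to be chosen after their values were seen lie outside the rule, and some genes that the rule chose are not reported here.

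Libraries held 8984445 to 12616572 gene counts, 83.7% to 86.4% of mapped reads, and replicates differed by more than sampling noise (chi-square per degree of freedom 1.55 to 2.57). The 95% binomial intervals cover counting error only. In simulated counts for TBK1i_KLA against DMSO_Veh, of which 12022 genes passed the filter, 106 of 109 genes changed 2-fold and 91 of 91 changed 4-fold were called, along with 3 unchanged genes. The changed genes were few, well counted and went both ways. All other genes had equal means in the groups, and the spread was set in advance. The simulation therefore does not show how the fit behaves with changes as widespread as those here, nor does it test the scaling. Alternatives were DESeq2 1.42.0, its size factors, library totals, other filters and thresholds, each library left out and a replicate block.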

Additional observations from a re-analysis of the deposited data

How the results depend on the processing

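With library totals in place of TMM, an alternative chosen after seeing the data, 1972 genes were higher in TBK1i_KLA than in DMSO_Veh, 1784 were higher and 6795 lower in DMSO_KLA than in DMSO_Veh, and 3987 were higher and 1429 lower in TBK1i_KLA than in DMSO_KLA. Without the fold threshold, 3505 were higher and 3631 lower in the last comparison. Of the 245 genes named and tested, library totals took the call against DMSO_Veh from 12 (Atp6v1h, Cd74, Dusp1, Ifi47, Ifih1, Lyz2, Peli1, Tap1, Tbk1, Traf6, Tyms and Zfp36) and gave one to 4 (Hk3, Ifit1, Igtp and Vegfa), and no called gene changed direction under the alternatives run. Of genes that were not called, 10 changed sign, 8 of them under library totals (Abca1, Cd247, Eif2ak2, Hk1, Hmox1, Mlkl, Nlrc5 and Tnip2) and Csf1r and Ncor1 when a library was left out. DESeq2 took the calls of Cxcl9 and Ppargc1b, and a limit of 5 CPM took those of Atp6v1h, Lyz2 and Tap1 and gave one to Ifit1. Leaving out each library in turn gave 3286 to 3376 genes higher and 3514 to 3819 lower in TBK1i_KLA than in DMSO_Veh, 3648 to 3752 and 3438 to 3654 in DMSO_KLA against DMSO_Veh, and 1721 to 1840 and 2171 to 2264 in TBK1i_KLA against DMSO_KLA. Over the same fits 1612 to 1641 KLA-induced genes were higher and 193 to 216 lower than DMSO_Veh, as were 183 to 186 and 176 to 195 IFNβ-induced genes. Groups left with 1 library were assumed to vary like the others. Replicate numbers did not pair the samples (correlations of deviations from the group means 0.001, 0.007 and -0.035), and with the replicate number as a block 3288 genes were higher and 3732 lower than DMSO_Veh, and no call of a named gene changed. At these depths genes under about 3 counts in a group have no usable fold.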
